A study of Homo sapiens with 30 samples.

Results

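The genes described here are 39 interferon-stimulated genes, which cells switch on when interferons, or the sensors of viral RNA that induce them, are active. They were matched by gene symbol, from a list made with earlier results of these data known, and all 39 were found among the 60617 genes of the tables, with DDX58 being the older symbol of RIGI. Their RNA was measured in SW480 and HCT116, both human colorectal cancer cell lines, after depletion of BRD8 or TIP60. TIP60 is a histone acetyltransferase encoded by KAT5, and BRD8 is a subunit of its complex that carries a bromodomain, a fold that binds acetylated lysine. In each line, cells received 10 nM of siBRD8-6 or siBRD8-36 against BRD8, of siTIP60-2 or siTIP60-11 against TIP60, or of a control siRNA, and RNA was collected 48 h later. This gave 10 groups of 3 libraries and 30 libraries in all. Every group, the controls included, was transfected, and no untransfected cells and no cells given interferon are among the samples used here. Each line is a single established line, and the siRNAs lower the RNA of their target without removing the gene.

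Interferons of type I and III bind receptors that work through the kinases JAK1 and TYK2. A complex of STAT proteins with IRF9 then enters the nucleus and binds a short promoter element, the interferon-stimulated response element, whose core is a pair of GAAA letters with a spacer between them. Factors of the IRF family bind related letters. The sensors IFIH1 (also called MDA5) and DDX58 (RIG-I) recognise double-stranded or 5'-triphosphate RNA in the cytosol and signal through MAVS to IRF3 and IRF7, which induce interferon. The induced proteins cut or trap viral RNA, block translation or mark proteins with ISG15, and epithelial cells make many of them at a low basal level without infection.

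The motif GAAA, then any 2 bases (NN), then GAAA again, searched on both strands with overlapping matches counted, occurred in at least 1 promoter window of 22 of the 32 members with a RefSeq window (68.8%), against 4.38% of all 27305 genes with windows of the same kind. Each window runs from 250 bases before the transcript start to 50 after it, in build GRCh38.p14. A match is a description of the letters and not a bound site. The promoters below belong to members whose level was called different after depletion, SAMD9 and ISG20 with 1 match each, OAS3 with 2 and IFIH1 with 3, and the matches are in capitals (TTTC, any 2 bases and TTTC is the same motif read on the other strand).
SAMD9 (chr7:93117930-93118229, minus strand): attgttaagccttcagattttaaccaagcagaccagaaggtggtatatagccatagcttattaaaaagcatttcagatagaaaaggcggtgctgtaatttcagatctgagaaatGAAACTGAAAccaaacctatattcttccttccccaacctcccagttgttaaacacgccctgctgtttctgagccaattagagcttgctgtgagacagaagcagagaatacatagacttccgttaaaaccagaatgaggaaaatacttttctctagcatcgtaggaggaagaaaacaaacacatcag
ISG20 (chr15:88638766-88639065, plus strand): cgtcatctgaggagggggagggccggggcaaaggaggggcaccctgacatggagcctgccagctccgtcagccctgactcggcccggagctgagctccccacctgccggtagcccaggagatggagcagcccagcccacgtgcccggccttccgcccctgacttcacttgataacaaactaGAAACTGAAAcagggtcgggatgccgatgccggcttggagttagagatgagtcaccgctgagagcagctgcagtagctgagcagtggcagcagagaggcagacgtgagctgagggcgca
OAS3 (chr12:112938224-112938523, plus strand): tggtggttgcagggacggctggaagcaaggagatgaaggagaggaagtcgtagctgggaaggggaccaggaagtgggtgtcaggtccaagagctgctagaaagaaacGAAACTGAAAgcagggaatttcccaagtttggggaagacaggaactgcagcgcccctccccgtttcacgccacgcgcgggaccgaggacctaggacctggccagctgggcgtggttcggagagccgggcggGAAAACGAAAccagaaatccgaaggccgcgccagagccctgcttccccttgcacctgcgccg
IFIH1 (chr2:162318635-162318934, minus strand): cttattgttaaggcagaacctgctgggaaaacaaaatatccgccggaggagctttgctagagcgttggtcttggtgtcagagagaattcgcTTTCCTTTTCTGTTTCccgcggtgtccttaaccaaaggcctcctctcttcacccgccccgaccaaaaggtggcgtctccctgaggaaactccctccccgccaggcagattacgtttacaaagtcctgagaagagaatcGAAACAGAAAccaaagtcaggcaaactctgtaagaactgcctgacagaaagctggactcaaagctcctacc
The SAMD9 match begins 136 bases before the start and the ISG20 match 69 bases before it. OAS3 has matches that begin 143 and 12 bases before its start. IFIH1 has a match that begins 21 bases before its start and 2 overlapping ones on the other strand that begin 159 and 153 bases before it. PARP9 and DTX3L, which lie head to head, share a single match at chr3:122564332-122564341. DDX58, OAS1, HERC6, CMPK2, IRF1, IRF9, STAT2, IFI35, SAMD9L and XAF1 had no such letters in their windows. The letters were common among the members, while the directions in which these 4 genes moved differed, as given with each gene.

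Rounded counts summed to 7.07 to 11.7 M counts per library in SW480 (median 8.92) and to 13.4 to 18.6 M counts in HCT116 (median 16.7), so low genes are measured less precisely in SW480, whose control libraries were the shallowest at 7.07 to 7.69 M counts. BRD8 stood at 12.3, 13.9 and 14.1 CPM (counts per M counts of a library) with siBRD8-6 and 12.2, 11.5 and 11 with siBRD8-36, against 59.2, 51.3 and 53.5 in SW480 controls. In HCT116 it stood at 8.19, 9.18 and 8.84 and 5.5, 5.85 and 6.5 CPM, against 45.2, 38.5 and 42.1 in controls. The log2 fold change of KAT5 with siTIP60-2 and siTIP60-11 was -3.64 and -2.87 in SW480, and -3.76 and -3.33 in HCT116, so each of the 4 siRNAs lowered its target. With siBRD8-36 the log2 fold change of KAT5 was -0.41 in SW480 and -0.31 in HCT116. The share of counts from mitochondrially encoded genes averaged 4.17% with siTIP60-11 and 2.74% in controls of SW480, and 2.94% with siTIP60-11 and 1.61% in controls of HCT116, and its part in the member changes was not tested. The epithelial markers EPCAM, KRT8, KRT18 and KRT19 were high in every library, with lowest values of 146, 1188, 908 and 417 TPM (transcripts per M transcripts, corrected for length). Others of the list were lower or uneven, with CDH1 at 2.38 to 62.9 TPM, CDX2 at 6.42 to 36.9, VIL1 at 0 to 4.84 and KRT20 at 0 to 2.91. The summed list lay at 3571 to 5292 TPM in depleted SW480 cells and 3065 to 3205 TPM in SW480 controls. In HCT116 it lay at 5779 to 6987 TPM in depleted cells and 3558 to 3584 TPM in controls. EPCAM went the other way in several groups, most with siBRD8-6 in HCT116, at 152, 154 and 146 TPM, against 260, 252 and 232 in controls. It also lay below all controls with siBRD8-36 and siTIP60-11 in HCT116 and with both TIP60 siRNAs in SW480. KRT20, a marker of differentiated colon epithelium, was at 0 counts in 4 of the SW480 groups. Markers of other cell types were uneven. Of 7 fibroblast markers, 2 were high enough to be tested. DCN had 1 count over all 30 libraries, while COL1A1 had 9178 and PDGFRB 493. The summed fibroblast list lay at 14.6 to 17.1 TPM with siBRD8-6 and 28.2 to 29.7 with siBRD8-36, against 7.28 to 11.7 in HCT116 controls. COL1A1 was called higher in HCT116 after BRD8 depletion (1.15 ± 0.0842) and after TIP60 depletion (0.36 ± 0.086), and its part in the member changes was not tested. In SW480 the list lay at 2.57 to 10.2 TPM in depleted cells and 3.3 to 4.09 TPM in controls. Of 3 endothelial markers, CDH5 had 0 counts and VWF 519, and their sum stayed at or below 0.99 TPM. Among 7 leukocyte markers PTPRC had 5 counts and CD68 2432. The summed leukocyte list lay at 22 to 28.5 TPM with siTIP60-2, against 6.28 to 9.73 in HCT116 controls, and CD68 made up most of it. In SW480 it lay at 0.96 to 6.65 TPM in depleted cells and 0.57 to 1.72 TPM in controls. HCT116 control replicate 2 stood apart, with a chi-square per gene of 15.9 and 21.3 against control replicates 1 and 3, which differed from each other by 3.72. Without it 7 members were called for BRD8 and 7 for TIP60 in HCT116, where the calls of HERC5 and USP18 (BRD8) and of OAS1 (TIP60) were lost and another member was newly called for BRD8. In bulk RNA, fewer expressing cells and less RNA per cell cannot be told apart.

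The control cells show which members each line makes without depletion. In SW480 controls IFI27, ISG15, BST2, ISG20 and IRF1 had the highest levels, at 118 ± 12.5, 61.0 ± 5.97, 50.7 ± 0.735, 38.7 ± 0.367 and 36.9 ± 3.12 TPM (SD, n = 3). In HCT116 controls ISG15, EIF2AK2, IFI35, IFI6 and STAT2 led, at 91.1 ± 18.9, 28.9 ± 6.57, 19.8 ± 1.04, 19.7 ± 3.72 and 17.8 ± 2.05 TPM. Neighbours in these orders often lay within their spread, as ISG20 and IRF1 did in SW480, and IFI35, IFI6 and STAT2 in HCT116. Below 1 TPM were 14 members in SW480 controls and 12 in HCT116 controls. IFI44L was listed at 0 in the controls of both lines.

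The lines differed in most members, but so they did in most genes: in the fit of all 30 libraries 33 of the 36 members tested differed between SW480 and HCT116 controls, 16 higher and 17 lower in SW480, where 78.5% of all genes tested differed (37% higher and 41.5% lower). BST2, a membrane protein that tethers virus particles, had 51.4, 49.9 and 50.9 TPM in SW480 and 3.96, 3.59 and 2.34 TPM in HCT116. IFI27, a small mitochondrial protein, had 118, 105 and 130 TPM in SW480 and 3.79, 3.27 and 2.59 in HCT116. The libraries of the lines did not overlap for either gene, and the log2 differences were 4.33 ± 0.146 and 5.52 ± 0.153 (SE). In the other direction stood SAMD9, an antiviral restriction factor, with 0.16, 0.14 and 0.13 TPM in SW480 and 2.32, 1.93 and 3.23 in HCT116, and HERC5, the ligase that attaches ISG15 to proteins, with 0.34, 0.27 and 0.23 and 9.07, 8.16 and 6.63. MX2, a GTPase that blocks retroviruses, had 216 counts in SW480 controls and 0 in HCT116 controls, which is at least 163-fold higher in SW480 when the floor of 3 counts over the group stands for 0. OAS2, which makes the 2'-5' oligoadenylates that activate RNase L, had 186 counts in SW480 and 2 in HCT116, a ratio of 210 with a 95% counting interval of 57.3 to 1747. For its relative OAS1 the counts were 65 and 3, and the ratio 48.9 (16.0 to 243). IFI44 was the reverse, with 0 counts in SW480 and 13 in HCT116, at least 1.92-fold lower in SW480. Only IFIH1, ISG15 and IFI6 of those tested did not pass this test. Lines were grown in different media, so line and culture cannot be told apart in these values.

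**Figure D1:**
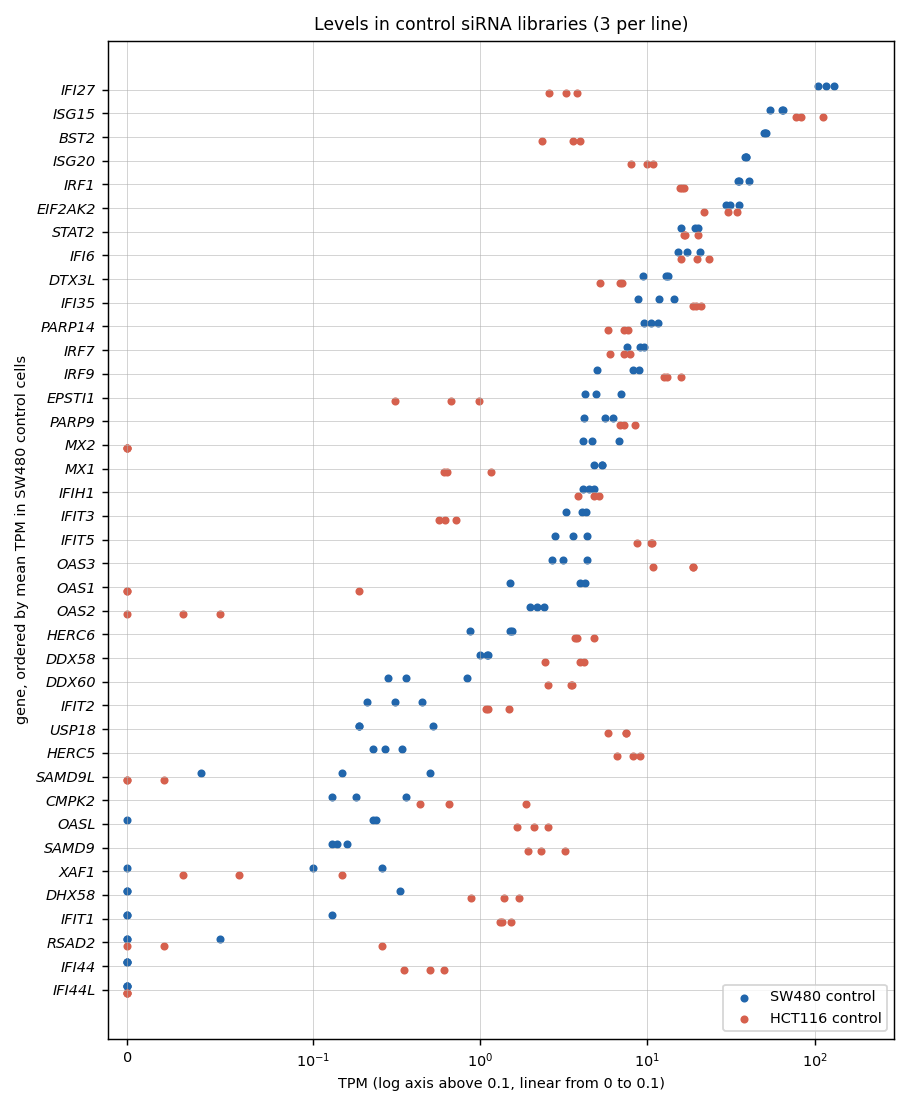
Level of each of the 39 members in the 3 control libraries of SW480 (blue) and of HCT116 (red), in TPM on an axis that is logarithmic above 0.1 and linear below it. Genes are ordered by their mean in SW480, from IFI27 at 118 TPM to IFI44L at 0, and points of the lines lie far apart for IFI27, BST2, MX2, OAS2, USP18 and HERC5.

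A call of a member after depletion needed the same direction with both siRNAs of a target and, for the larger of their p-values (edgeR quasi-likelihood test), a value under 0.05 after Benjamini-Hochberg adjustment over all genes tested. In SW480, BRD8 depletion gave 4 members higher (IFIH1, STAT2, OAS1 and HERC6) and 1 lower (IRF1) of 33 tested, 15.2%, where 26.9% of all genes were called (12.9% higher and 14% lower). TIP60 depletion in SW480 gave 5 higher (IFIH1, OAS2, OAS3, OASL and SAMD9) and 3 lower (IRF9, ISG15 and BST2) of 33, 24.2% against a background of 23.6% (11.5% higher and 12.1% lower). In HCT116, BRD8 depletion gave 6 higher (IFIH1, DDX58, OASL, HERC6, USP18 and SAMD9) and 2 lower (OAS3 and HERC5) of 33, 24.2% against 24.4% (12.2% in each direction). TIP60 depletion in HCT116 gave 7 higher (OAS1, OAS3, OASL, IFIT3, HERC6, PARP9 and DDX60) and 1 lower (ISG20) of 33, 24.2% against 27.9% (13.7% higher and 14.1% lower). The share of members called was near or below that of genes at large, and in each of the 4 comparisons more of the called members were higher than lower. The median log2 fold change of the tested members was 0.30 in SW480 and 0.11 in HCT116 for BRD8, and 0.08 in SW480 and 0.13 in HCT116 for TIP60, with the median of all genes between -0.03 and 0.01. The 5 calls for BRD8 in SW480 became 2 without control replicate 1, and 3 without control replicate 2 or 3 or siBRD8-6 replicate 1 or 3. With DESeq2 the calls of STAT2, HERC6 and IRF1 (BRD8, SW480), IRF9 and OASL (TIP60, SW480), and HERC5 and USP18 (BRD8, HCT116) were lost. On the log2(TPM + 1) scale, which understates changes of low genes, limma lost those of IRF1, IRF9 and ISG15 in SW480, of HERC5, HERC6 and USP18 for BRD8 in HCT116, and of OAS1, OAS3, IFIT3, HERC6 and DDX60 for TIP60 in HCT116. ISG15 and IRF1 in SW480 and OAS3 in HCT116 were not low, with control means of 61.0, 36.9 and 16.1 TPM. IRF9 had a control mean of 7.37 TPM in SW480, and in TPM it was not lower there with siTIP60-2. Why these calls were lost was not tested.

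Counted over the 4 comparisons, IFIH1, OAS3, OASL and HERC6 were called in 3, OAS1 and SAMD9 in 2, 13 members in 1 and 20 in none. IFIH1, OASL and HERC6 were higher each time. OAS3 was lower after BRD8 depletion in HCT116 and higher after TIP60 depletion in both lines. No member was called in all 4. The comparisons of a line share their control libraries and are not independent of each other. Members whose 6 depleted libraries all lay beyond the 3 controls numbered 7 of 33 in SW480 for BRD8 (35.2% of all genes) and 10 for TIP60 (34.4%), and 9 in HCT116 for BRD8 (29.3%) and 10 for TIP60 (33.5%).

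**Figure D2:**
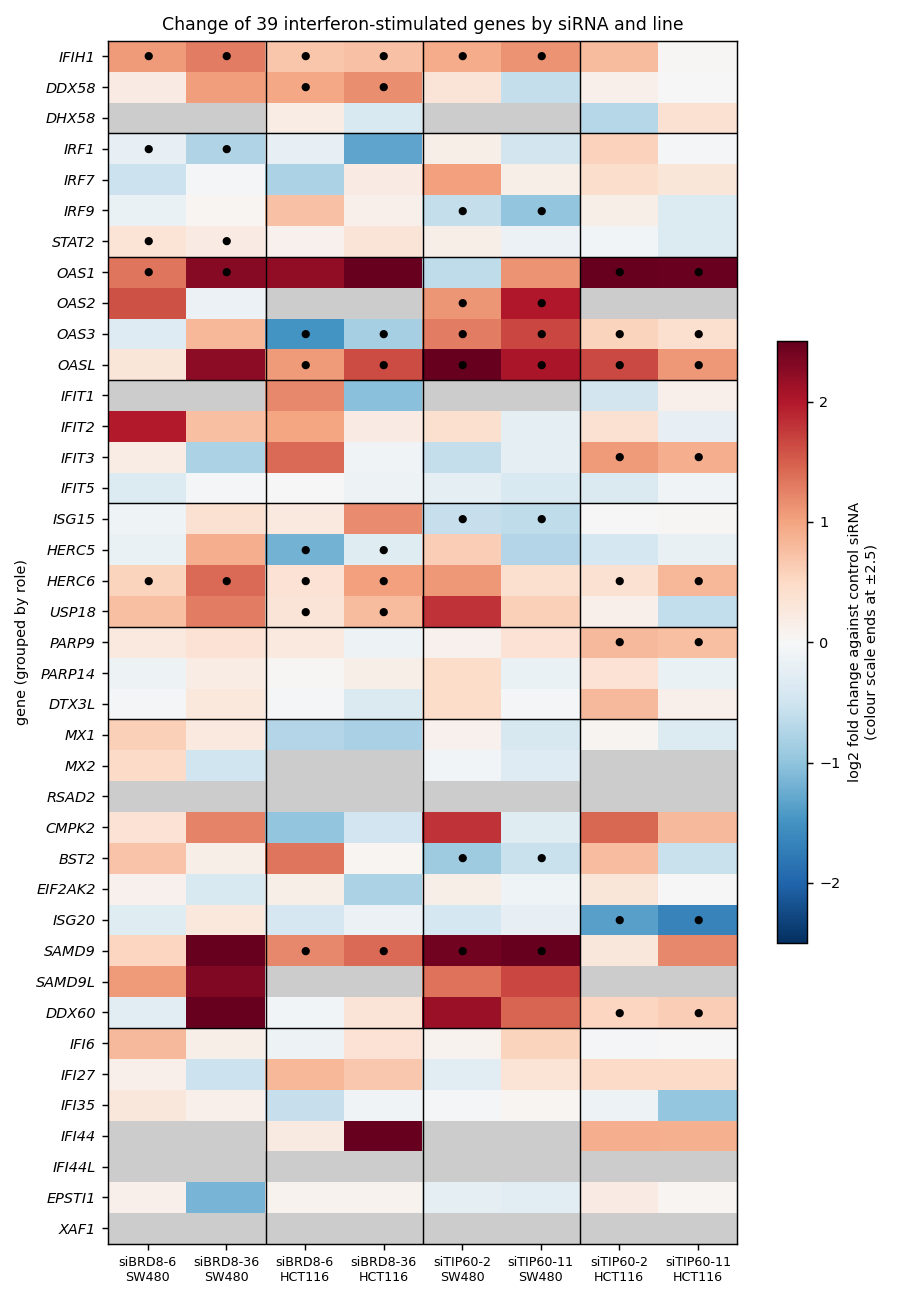
Log2 fold change against the control siRNA of the same line for each member (rows, grouped by role) and each siRNA (columns), with red for higher, blue for lower and grey for genes not tested. A dot marks a gene called for that target and line, and IFIH1 carries dots in 6 of the 8 columns, the exceptions being the TIP60 siRNAs in HCT116.

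Among the RNA sensors, IFIH1 was called in 3 of the 4 comparisons. It rose with BRD8 depletion in both lines and with TIP60 depletion in SW480. In SW480 it had 23, 27.6 and 26 CPM with siBRD8-6, 29, 28.6 and 31.6 with siBRD8-36, 19.8, 25 and 25.1 with siTIP60-2 and 27, 24.1 and 28.6 with siTIP60-11, against 12.9, 10.4 and 13.3 in controls. Every depleted SW480 library lay above every control, and the log2 fold changes were 1.18 ± 0.108 for BRD8 (adjusted p = 7.48e-08) and 1.03 ± 0.109 for TIP60 (adjusted p = 1.34e-06). In HCT116 it had 15.5, 17.3 and 15.1 CPM with siBRD8-6, 16.8, 15.3 and 16.8 with siBRD8-36, 17, 16.3 and 17.8 with siTIP60-2 and 10.9, 10.4 and 8.78 with siTIP60-11, against 9.71, 9.26 and 10.5 in controls. The siTIP60-11 libraries overlapped the controls while the other 3 siRNAs did not, so the call held for BRD8 (0.71 ± 0.0843, adjusted p = 1.43e-05) and failed for TIP60. The 3 IFIH1 calls held under all alternatives computed.

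DDX58, the RIG-I gene, rose after BRD8 depletion in HCT116, with 22.9, 20.9 and 19.9 CPM with siBRD8-6 and 27.2, 22.6 and 23.6 with siBRD8-36, against 11.8, 8.43 and 12.2 in controls. All 6 depleted libraries lay above the controls (log2 fold change 1.06 ± 0.102, adjusted p = 2.76e-06), a call that held under all alternatives. TIP60 depletion in HCT116 left it at 13.1, 11 and 11.7 and 10.9, 11.5 and 10.5 CPM, within the range of the controls or close to it. In SW480 siBRD8-36 gave 9.02, 8.44 and 9.17 CPM and siBRD8-6 6.25, 4.23 and 4.64, against 4.26, 4.64 and 4.03 in controls. There siBRD8-36 alone was higher (1.04, adjusted p = 1.21e-05), and siTIP60-11 alone lower (-0.60, adjusted p = 0.0154). DHX58 (LGP2), a regulator of the other sensors, stayed at or below 1.08 CPM in all libraries and was not tested in SW480.

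The factors that transmit the interferon signal gave 3 calls, all in SW480. STAT2, the partner of IRF9, rose after BRD8 depletion in SW480, at 49.8, 51.9 and 52.3 CPM with siBRD8-6 and 49.1, 46.2 and 45.4 with siBRD8-36, against 39.4, 42.9 and 39.6 in controls (0.27 ± 0.0636, adjusted p = 0.033). IRF9, the DNA-binding part of that complex, fell after TIP60 depletion in SW480, at 4.72, 3.83 and 5.29 and 3.83, 3.54 and 3.23 CPM with siTIP60-2 and siTIP60-11, against 7.55, 6.75 and 6.57 in controls (-0.79 ± 0.157, adjusted p = 0.0157). The groups did not overlap in CPM for either gene, but IRF9 shares exons with another gene on its strand and its counts were estimates in all 30 libraries. In TPM IRF9 did not fall with siTIP60-2 in SW480, at 5.95, 6.71 and 10.7, against 8.24, 8.88 and 4.99 in controls. IRF1, a factor induced by interferon gamma, fell after BRD8 depletion in SW480, to 54.2, 55 and 52.7 CPM with siBRD8-6 and 36, 37.9 and 37.1 with siBRD8-36, against 61.7, 62.3 and 62.2 in controls (-0.47 ± 0.0614, adjusted p = 0.0303). The siBRD8-6 part of that change was small (-0.20), and so it was in HCT116, where siBRD8-36 gave 8.7, 8.94 and 8.77 CPM and siBRD8-6 20.4, 18.4 and 18.8, against 20.8, 25.2 and 20.3 in controls, with no call. IRF7, the factor that amplifies interferon production, was called in none of the 4 comparisons, although siTIP60-2 alone gave 23.5, 23.9 and 18.8 CPM in SW480, against 11.1, 10.1 and 11.2 in controls (adjusted p = 1.59e-07). Without SW480 control replicate 1 the calls of STAT2, IRF9 and IRF1 were lost. The STAT2 call was also lost without control replicate 3 or siBRD8-36 replicate 1 or 2, the IRF9 call without siTIP60-2 replicate 2, and the IRF1 call without control replicate 2 or 3 or siBRD8-6 replicate 1 or 3.

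The OAS genes, whose products sense double-stranded RNA and activate RNase L, had a called member in each of the 4 comparisons. OAS1, OAS3 and OAS2 lie in this order on chromosome 12, from 112906777 to 113011723 on the plus strand of GRCh38, with gaps of 5.1 kb between neighbours, and OASL lies apart on the same chromosome. OAS3 moved in opposite directions for the 2 targets in HCT116, with 15.8, 19.9 and 18.2 CPM with siBRD8-6 and 28.8, 28.4 and 28.1 with siBRD8-36, 75.1, 72 and 75.3 with siTIP60-2 and 66.9, 70.2 and 63.4 with siTIP60-11, against 54, 42.9 and 54.7 in controls. All BRD8 libraries lay below the controls and all TIP60 libraries above them. The log2 fold changes were -1.17 ± 0.0734 for BRD8 (adjusted p = 4.81e-07) and 0.47 ± 0.0708 for TIP60 (adjusted p = 0.000761), and the direct difference of BRD8 minus TIP60 was -1.64 ± 0.0612 (adjusted p = 7.57e-14). In SW480 it had 9.74, 10.3 and 10.3 CPM with siBRD8-6, 19.4, 24.3 and 23.7 with siBRD8-36, 32.7, 28.4 and 30.4 with siTIP60-2 and 42, 39.4 and 39 with siTIP60-11, against 12.9, 12.4 and 12.6 in controls. TIP60 depletion raised it there too (1.47 ± 0.0934, adjusted p = 4.85e-10), while by counts siBRD8-6 was lower (-0.31, adjusted p = 0.0304) and siBRD8-36 higher (0.83, adjusted p = 2.14e-07) than control, so BRD8 gave no call. In TPM siBRD8-6 was not lower in SW480, at 4.1, 5.78 and 3.52, against 2.69, 3.12 and 4.34 in controls.

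OAS1 rose after BRD8 depletion in SW480, with 6.61, 7.9 and 8.85 CPM with siBRD8-6 and 13.3, 16 and 15.6 with siBRD8-36, against 3.16, 3.94 and 2.09 in controls (1.81 ± 0.176, adjusted p = 5.7e-06), and the groups did not overlap. The TIP60 siRNAs split there, with 2.07, 2.14 and 1.76 CPM with siTIP60-2 and 5.64, 7.29 and 7.24 with siTIP60-11. In HCT116 the 3 control libraries held 3 OAS1 counts together, all of them in replicate 1. With siTIP60-2 there were 37 counts, a ratio to control of 11.6 (95% counting interval 3.69 to 59.0), and with siTIP60-11 18 counts, a ratio of 6.08 (1.78 to 32.2), and TIP60 depletion was called (adjusted p = 0.0272). The BRD8 siRNAs gave 16 counts, a ratio of 5.07 (1.45 to 27.1), and 36 counts, a ratio of 11.3 (3.56 to 57.2), and BRD8 depletion was not called (adjusted p = 0.061). The intervals are wide because the controls held so few counts, and the TIP60 call was lost without control replicate 2, control replicate 3 or siTIP60-11 replicate 2.

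OAS2 was measured almost only in SW480, where TIP60 depletion raised it. It had 16.1, 20.5 and 20.5 CPM with siTIP60-2 and 37, 34.1 and 35.5 with siTIP60-11, against 9.47, 8.15 and 8.82 in controls (1.56 ± 0.107, adjusted p = 8.26e-08). The BRD8 siRNAs parted from each other, with 25.7, 27.3 and 26.6 CPM with siBRD8-6, above all controls, and 7.46, 8.99 and 7.68 with siBRD8-36, which overlapped them. OASL, a relative without synthetase activity that enhances RIG-I signalling, rose after depletion of either target in HCT116. It had 7.05, 5.4 and 5.25 CPM with siBRD8-6, 8.7, 8.6 and 8.77 with siBRD8-36, 9.54, 8.58 and 8.19 with siTIP60-2 and 6.49, 6.36 and 5.05 with siTIP60-11, against 3.11, 2.86 and 2.43 in controls. All 12 depleted libraries lay above the controls, with log2 fold changes of 1.35 ± 0.134 for BRD8 (adjusted p = 2.15e-05) and 1.37 ± 0.134 for TIP60 (adjusted p = 1.6e-05), and both calls held under all alternatives. In SW480 its level was low, with 1.5, 1.24 and 1.43 CPM with siTIP60-2 and 1.06, 0.643 and 0.782 with siTIP60-11, against 0.275, 0 and 0.299 in controls. That change was called (2.42 ± 0.603, adjusted p = 0.0268) but not without SW480 control replicate 1 or 2, or without siTIP60-11 replicate 1 or 3.

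The IFIT genes, whose products bind viral RNA that lacks host cap marks, are neighbours on chromosome 10 and gave a single call. IFIT3 rose after TIP60 depletion in HCT116, with 1.71, 2.63 and 2.08 CPM with siTIP60-2 and 1.98, 2.33 and 1.38 with siTIP60-11, against 0.873, 1.28 and 0.936 in controls (0.99 ± 0.24, adjusted p = 0.0164). The lowest siTIP60-11 library lay just above the highest control, and the call was lost without control replicate 1 or 3 or siTIP60-11 replicate 2. IFIT1 moved in opposite directions with the BRD8 siRNAs in HCT116, with 9.8, 11 and 9.02 CPM with siBRD8-6, all above the controls, and 2.01, 2.35 and 1.96 with siBRD8-36, all below them, against 4.53, 4.52 and 3.93 in controls. In SW480 it had at most 8 counts in a library and was not tested. IFIT2 was higher with siBRD8-6 alone, by 1.97 in SW480 (adjusted p = 3.03e-05) and 0.98 in HCT116 (adjusted p = 0.000134) on the log2 scale. IFIT5 had no call.

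ISG15 is a ubiquitin-like protein, HERC5 and HERC6 are ligases of the kind that attach it (HERC6 in mouse), and USP18 removes it and damps interferon signalling. ISG15 fell after TIP60 depletion in SW480, to 18.4, 23 and 22.6 CPM with siTIP60-2 and 21.8, 19.6 and 19.9 with siTIP60-11, against 33.1, 29.1 and 32.9 in controls (-0.60 ± 0.103, adjusted p = 0.000735). None of the 6 depleted libraries reached the controls. In HCT116 siBRD8-36 alone was higher, with 75, 95.2 and 76.9 CPM and siBRD8-6 with 40.4, 45.4 and 42.8, against 31.2, 49.4 and 29.3 in controls, where control replicate 2 stood apart from the other controls. HERC6 rose in both lines after BRD8 depletion and in HCT116 after TIP60 depletion. In SW480 it had 6.01, 5.68 and 5.9 CPM with siBRD8-6 and 10.4, 10.7 and 10.8 with siBRD8-36, against 4.12, 2.81 and 5.08 in controls (0.98 ± 0.163, adjusted p = 0.027). In HCT116 it had 10.5, 9.48 and 9.91 CPM with siBRD8-6, 17.9, 15.1 and 14.8 with siBRD8-36, 10.3, 10.6 and 9.72 with siTIP60-2 and 14.8, 12.7 and 13.9 with siTIP60-11, against 8.46, 8.06 and 6.86 in controls. The groups did not overlap, siBRD8-36 gave the higher level of the BRD8 pair in each line, and the changes in HCT116 were 0.69 ± 0.0952 for BRD8 (adjusted p = 0.0219) and 0.61 ± 0.0955 for TIP60 (adjusted p = 0.0104).

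HERC5, 14 kb from HERC6 on chromosome 4, fell after BRD8 depletion in HCT116, where HERC6 rose. It had 7.29, 8.4 and 6.87 CPM with siBRD8-6 and 14.3, 14.2 and 13.1 with siBRD8-36, against 18.3, 18.1 and 14.9 in controls (-0.74 ± 0.0872, adjusted p = 0.0305). USP18 rose in the same comparison, with 11.6, 10.3 and 9.79 CPM with siBRD8-6 and 14.5, 15.5 and 14 with siBRD8-36, against 8.78, 7.9 and 8.74 in controls (0.55 ± 0.0848, adjusted p = 0.0218). For HERC5 and USP18 the siBRD8 group nearest to control came close to it, and both calls were lost without HCT116 control replicate 2. The HERC5 call was also lost without control replicate 1 or siBRD8-36 replicate 3, and the USP18 call without siBRD8-6 replicate 1. The HERC6 calls in HCT116 were lost without control replicate 3, and the BRD8 call also without siBRD8-6 replicate 1. In SW480 the HERC6 call was lost without control replicate 1 or 2 or siBRD8-6 replicate 1 or 3. Reads of USP18 and HERC6 were partly divided with other genes, with counts that were not whole in 24 and 19 of the 30 libraries.

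PARP9, PARP14 and DTX3L act in ADP-ribosylation, and PARP9 works as a pair with the ubiquitin ligase DTX3L, with which it overlaps at the start and from which it is transcribed in the opposite direction. PARP9 rose after TIP60 depletion in HCT116, with 28.8, 29.4 and 31.2 CPM with siTIP60-2 and 28.3, 28.3 and 29.4 with siTIP60-11, against 17.7, 15.7 and 17.4 in controls (0.78 ± 0.0693, adjusted p = 4.62e-07). The groups did not overlap and the call held under all alternatives. DTX3L followed with siTIP60-2 alone, with 40.3, 39.8 and 38.6 CPM, while siTIP60-11 gave 24.8, 24.1 and 24.3, against 22.3, 19.3 and 25.4 in controls. PARP14 had the same pattern at a smaller size, higher by 0.36 with siTIP60-2 in HCT116 (adjusted p = 0.00307) and by 0.45 with siTIP60-2 in SW480 (adjusted p = 3.39e-05).

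Among the other effectors, SAMD9 gave the largest called change in SW480 and a call for BRD8 in HCT116. In SW480 it had 3.34, 4.84 and 4.08 CPM with siTIP60-2 and 5.42, 4.5 and 4.6 with siTIP60-11, against 0.961, 0.843 and 0.448 in controls (2.53 ± 0.285, adjusted p = 1.2e-06). All TIP60 libraries lay above the controls, and so did siBRD8-36 at 5.53, 6.55 and 8.18 CPM, while siBRD8-6 overlapped them at 0.962, 1.45 and 0.927. In HCT116 it had 28.6, 24.7 and 24.4 CPM with siBRD8-6 and 31.5, 29.8 and 29.4 with siBRD8-36, against 10.2, 9.86 and 13.9 in controls (1.3 ± 0.0902, adjusted p = 4.57e-08). Both calls held under all alternatives. The TIP60 siRNAs parted in HCT116, with 14.3, 13.4 and 13.9 CPM with siTIP60-2 and 26.7, 26.1 and 25.8 with siTIP60-11, and the call was missed at an adjusted p of 0.0516. Its neighbour SAMD9L, 12 kb away on chromosome 7, had at most 19 counts in a library and no call.

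ISG20, an exonuclease that degrades viral RNA, carried the largest fall. After TIP60 depletion in HCT116 it had 1.71, 2.1 and 1.83 CPM with siTIP60-2 and 1.62, 1.39 and 1.52 with siTIP60-11, against 4.04, 5.5 and 5.12 in controls (-1.52 ± 0.139, adjusted p = 2.67e-06). Neither siRNA's libraries reached the controls, and the call held under all alternatives. BST2 fell after TIP60 depletion in SW480, to 23.5, 24.8 and 18.8 CPM with siTIP60-2 and 27, 26.9 and 30.1 with siTIP60-11, against 41.7, 42.7 and 39.4 in controls (-0.72 ± 0.0786, adjusted p = 2.45e-05), and siBRD8-6 alone gave 65, 70.0 and 67 CPM, above all controls. DDX60, a helicase that supports RIG-I, rose after TIP60 depletion in HCT116, with 15.7, 12.1 and 13.2 CPM with siTIP60-2 and 15.7, 14.6 and 12.8 with siTIP60-11, against 9.55, 8.81 and 9.74 in controls (0.58 ± 0.106, adjusted p = 0.00166). In SW480 DDX60 had at most 2.71 CPM in a library. EIF2AK2 (PKR), the kinase that stops translation on double-stranded RNA, MX1, MX2 and CMPK2 had no call, and RSAD2 (viperin) stayed at or below 5 counts in every library and was not tested.

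The remaining induced genes, IFI6, IFI27, IFI35, IFI44, IFI44L, EPSTI1 and XAF1, gave no call for either target in either line. IFI44 had 1.6, 1.81 and 1.85 CPM with siBRD8-36 in HCT116, against 0.327, 0.226 and 0.25 in controls, without overlap, while siBRD8-6 gave 0.358, 0.36 and 0.239. It was at 0 counts in all 15 SW480 libraries. IFI27, the highest member in SW480 controls, was lower by counts with siTIP60-2 (-0.27, adjusted p = 0.0193) and higher with siTIP60-11 (0.35, adjusted p = 0.0022). In TPM its siTIP60-2 libraries overlapped the controls. IFI44L had a single count in a single library of the 30, and XAF1 at most 4 counts in any.

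**Figure D3:**
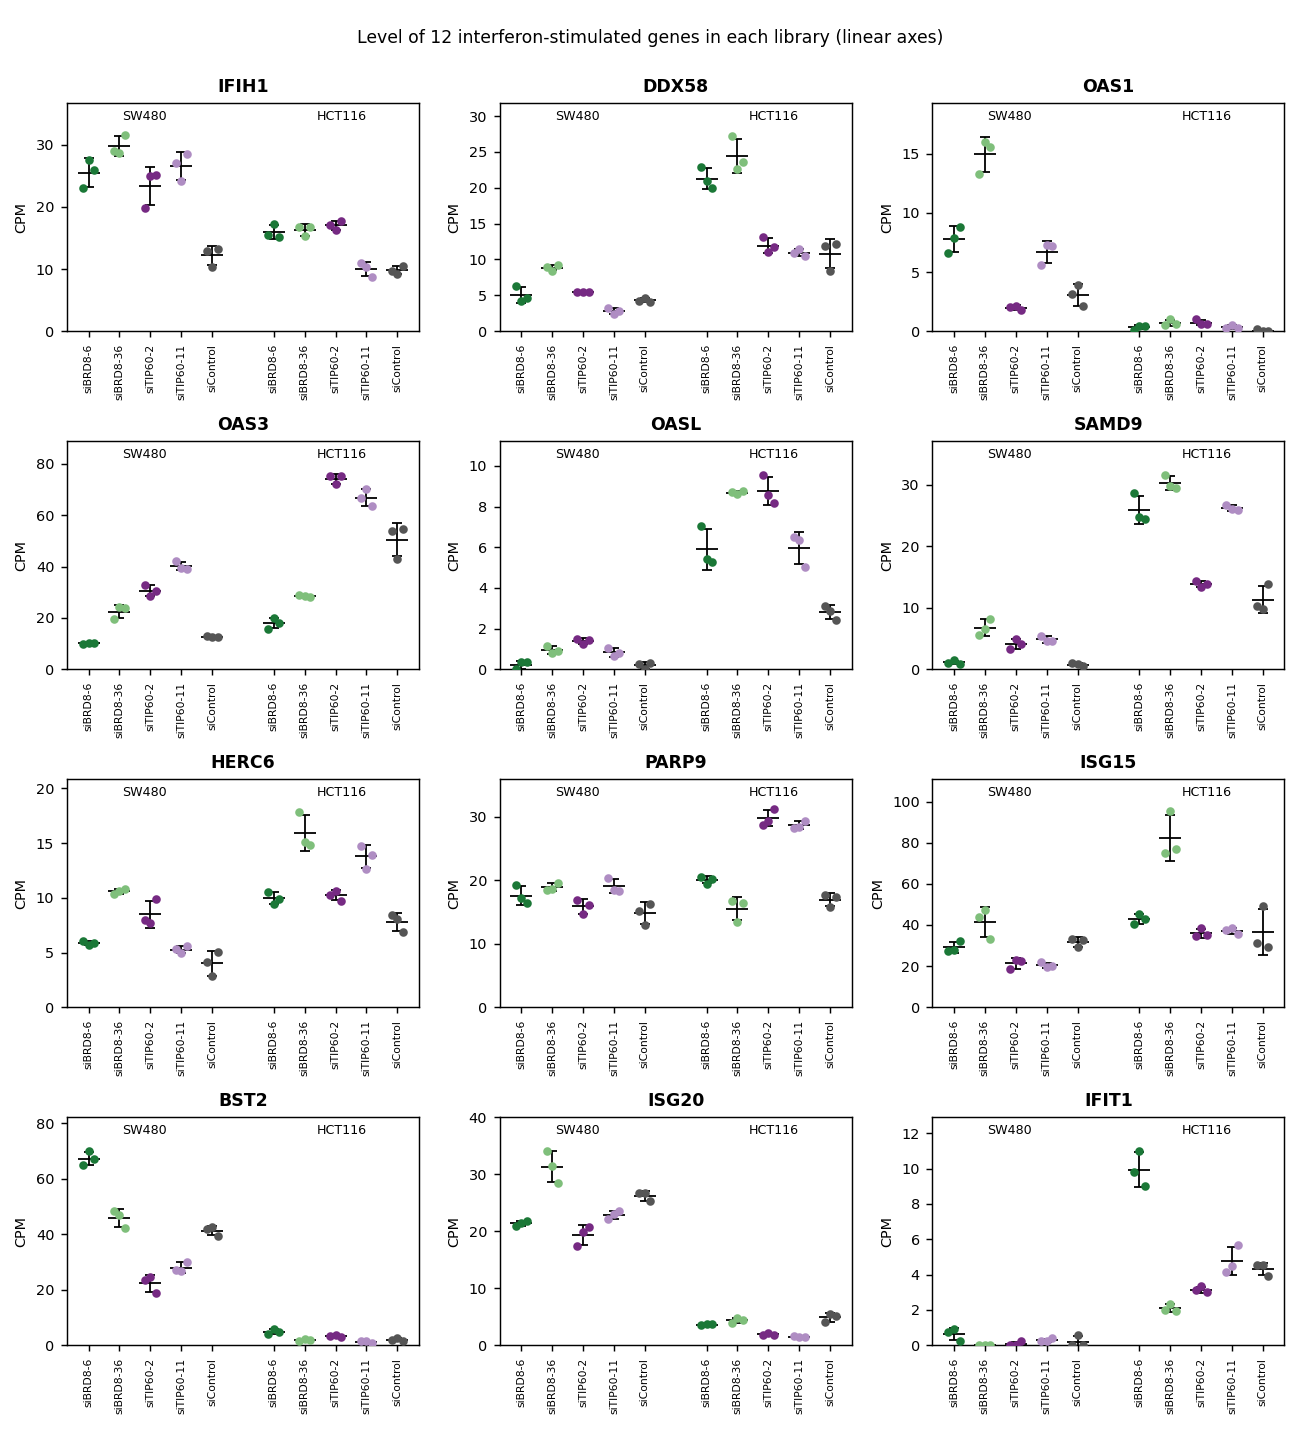
CPM of 12 members in each library on linear axes that start at 0, with SW480 left and HCT116 right in every panel and the control siRNA last in each line. Points are libraries, and the horizontal and vertical bars are the mean and SD of 3. In HCT116 SAMD9 lies above 24 CPM with both BRD8 siRNAs, against 10.2, 9.86 and 13.9 in controls. In SW480 it lies near 0 in controls and with siBRD8-6. OAS3 in HCT116 lies below its controls with BRD8 siRNAs and above them with TIP60 siRNAs.

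The siRNAs of a target differed from each other in many members, as they did in many genes. The direct difference of siBRD8-36 minus siBRD8-6 was called in 25 of 33 members in SW480, 14 higher and 11 lower, where 52.8% of all genes were called (25.9% higher and 27% lower), and in 22 of 33 in HCT116, 13 higher and 9 lower, against 56.7% (28.4% higher and 28.3% lower). For siTIP60-11 minus siTIP60-2 it was called in 20 of 33 members in SW480, 8 higher and 12 lower, against 45.3% of all genes (21.9% higher and 23.4% lower), and in 18 of 33 in HCT116, 6 higher and 12 lower, against 46% (22.5% higher and 23.5% lower). Set against control singly, siBRD8-6 gave 10 members higher and 4 lower in SW480 (42.4% of 33, with 52.1% of all genes called) and 14 higher and 6 lower in HCT116 (60.6%, with 50.5%). With siBRD8-36 15 were higher and 6 lower in SW480 (63.6%, with 56.8%) and 12 higher and 6 lower in HCT116 (54.5%, with 58.3%). With siTIP60-2 12 were higher and 7 lower in SW480 (57.6%, with 49.5%) and 16 higher and 4 lower in HCT116 (60.6%, with 49.8%). With siTIP60-11 11 were higher and 7 lower in SW480 (54.5%, with 47.6%) and 9 higher and 5 lower in HCT116 (42.4%, with 53.6%). The members' share lay below that of all genes for 3 of these 8 siRNA and line pairs and above it for 5. By counts, both siRNAs of a target were called singly in opposite directions for OAS3, MX2 and ISG20 (BRD8, SW480), for IFIT1 (BRD8, HCT116) and for OAS1 and IFI27 (TIP60, SW480). In TPM the siBRD8-6 libraries of OAS3 and ISG20, siBRD8-36 of MX2 and siTIP60-2 of OAS1 and IFI27 overlapped the SW480 controls. Only for IFIT1 did both siRNAs lie apart from the controls in TPM, on opposite sides. Among the largest siRNA differences were DDX60 (2.90 ± 0.474), SAMD9 (2.60 ± 0.256) and OAS2 (-1.73 ± 0.112) for siBRD8-36 minus siBRD8-6 in SW480, and IFI44 (2.43 ± 0.342) and IFIT1 (-2.24 ± 0.147) in HCT116. For siTIP60-11 minus siTIP60-2 they were CMPK2 (-2.11 ± 0.452) and OAS1 (1.75 ± 0.21) in SW480, and BST2 (-1.33 ± 0.241) and DHX58 (1.09 ± 0.358) in HCT116. Some of these rest on low counts. DDX60 had 28, 21 and 22 counts with siBRD8-36 and 4, 3 and 2 with siBRD8-6 in SW480. DHX58 had 15, 14 and 15 counts with siTIP60-11 and 10, 6 and 6 with siTIP60-2 in HCT116. CMPK2, a mitochondrial nucleotide kinase, had 0.319, 0.322 and 0.391 CPM with siTIP60-11 and 1.27, 1.69 and 1.65 with siTIP60-2 in SW480. For IFIH1 the siRNA difference was called in 1 of the 4 pairs, siTIP60-11 minus siTIP60-2 in HCT116 (-0.76 ± 0.0946, adjusted p = 2.53e-06).

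**Figure D4:**
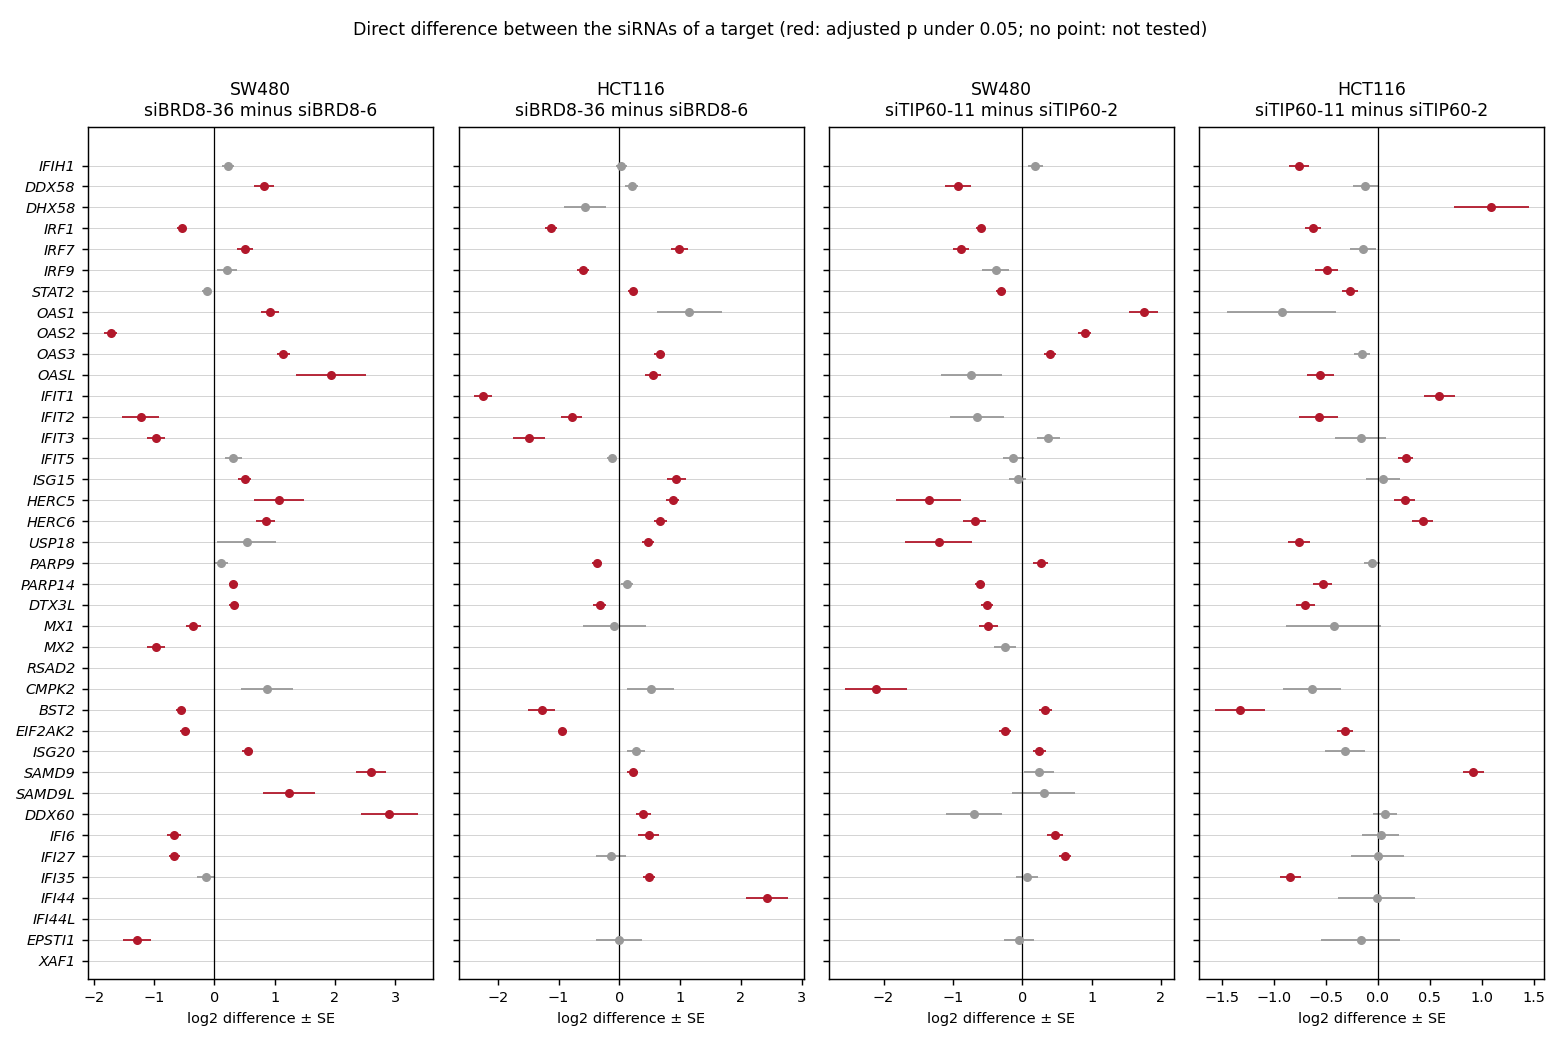
Log2 difference between the siRNAs of a target (point) with its standard error (bar) for each member, in 4 panels by line and target; red points passed an adjusted p of 0.05 and members without a point were not tested. Most members have a red point in the BRD8 panels, with DDX60 and SAMD9 farthest to the right in SW480 and IFI44 in HCT116.

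BRD8 and TIP60 depletion were also compared directly, through the mean of both siRNAs of each target. In SW480 9 members were higher and 8 lower with BRD8 than with TIP60 depletion, 17 of 33, against 59.9% of all genes (29.7% higher and 30.2% lower). In HCT116 12 were higher and 9 lower, 21 of 33, against 61.8% (30% higher and 31.7% lower). OAS3 was lower with BRD8 than with TIP60 depletion in both lines (-1.21 ± 0.0677 in SW480 and -1.64 ± 0.0612 in HCT116), and so were IRF7 (-0.88 ± 0.0904 and -0.66 ± 0.0913) and IRF1 (-0.32 ± 0.0495 and -1.03 ± 0.0612). Higher with BRD8 than with TIP60 depletion in both lines were DDX58 (0.77 ± 0.125 in SW480 and 0.99 ± 0.08 in HCT116), ISG15 (0.74 ± 0.0806 and 0.70 ± 0.111), IRF9, STAT2, IFIT2, BST2 and ISG20. Between the targets the single libraries did not overlap for OAS3 and ISG15 in either line. Those of DDX58 overlapped in SW480, of IRF1 in SW480, of IRF7 in HCT116, and of IRF9, STAT2, IFIT2, BST2 and ISG20 in 1 line or both. For SAMD9 the siRNAs did not give a common direction. Its mean difference was -0.70 ± 0.172 in SW480, where siBRD8-6 lay below both TIP60 siRNAs and siBRD8-36 above them, and 0.55 ± 0.0666 in HCT116, where siTIP60-2 lay below both BRD8 siRNAs and siTIP60-11 overlapped siBRD8-6. The IFIH1 difference in HCT116 (0.30 ± 0.0653, adjusted p = 0.000531) rested on siTIP60-11, since siTIP60-2 lay within the BRD8 libraries or above them, and it had no call in SW480. EIF2AK2 was lower with BRD8 depletion in HCT116 (-0.46 ± 0.0536), a value that rested on siBRD8-36, at 51.3, 49 and 46.8 CPM, since siBRD8-6 gave 94.5, 89.4 and 97.3, and no TIP60 library lay below 80.8 CPM.

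Whether a response differed between the lines was tested with the interaction term (SW480 minus HCT116) in the fit of all 30 libraries. For BRD8 it was called in 13 of 36 members, 9 higher and 4 lower, against 34.4% of all genes (21.9% higher and 12.5% lower), whose median was 0.10. For TIP60 it was called in 15 of 36, 8 higher and 7 lower, against 31.1% of all genes (18% higher and 13.1% lower) with a median of 0.06. The largest called differences for BRD8 were in CMPK2 (1.60 ± 0.533, adjusted p = 0.0183), OAS3 (1.49 ± 0.129, adjusted p = 3.84e-11) and MX1 (1.27 ± 0.368, adjusted p = 0.00689). OAS3 was lower after BRD8 depletion in HCT116 and divided by siRNA in SW480 by counts, though not in TPM. For TIP60 they were in OAS1 (-2.61 ± 0.664, adjusted p = 0.00254), SAMD9 (1.83 ± 0.308, adjusted p = 1.83e-05) and USP18 (1.5 ± 0.455, adjusted p = 0.0107). The OAS1 value rests on the 3 counts of its HCT116 controls, and its SW480 part is the mean of a fall with siTIP60-2 and a rise with siTIP60-11.

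The surrounding pathway was read from further lists. Of 9 interferon ligands, IFNA1, IFNB1, IFNK, IFNW1 and IFNG had 0 counts in all 30 libraries, which together held 381 M counts, and none of the 9 was high enough to be tested. IFNE had 87 counts in all, IFNL1 15, IFNL3 5 and IFNL2 1. Of 9 genes for receptors and JAK kinases, BRD8 depletion called 1 higher and 1 lower in SW480 and 1 lower in HCT116, and TIP60 depletion called 1 higher in SW480 and 1 higher and 2 lower in HCT116. These are 22.2% and 11.1% of the list for BRD8 in SW480 and HCT116, against 26.9% and 24.4% of all genes, and 11.1% and 33.3% for TIP60, against 23.6% and 27.9%, each set by 1 to 3 genes. TYK2, the kinase at the type I receptor, was higher after TIP60 depletion in both lines (0.81 ± 0.076 in SW480 and 0.47 ± 0.0575 in HCT116). Of the sensing adaptors tested, 9 in SW480 and 8 in HCT116, IRF3 was lower after TIP60 depletion in both (-0.43 ± 0.0618 and -0.35 ± 0.0749), where 12.1% and 14.1% of all genes were called lower. NLRX1, a mitochondrial protein that restrains MAVS signalling, was higher in all 4 comparisons, by 1.28 ± 0.104 and 1.19 ± 0.105 for BRD8 and TIP60 in SW480 and by 0.58 ± 0.0727 and 0.46 ± 0.073 in HCT116, while the other 5 negative regulators were called in at most 2 of them. Of all genes, 12.9% and 11.5% were called higher for BRD8 and TIP60 in SW480, and 12.2% and 13.7% in HCT116.

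Further interferon-induced genes outside the 39 gave 4 higher and 2 lower of 27 for BRD8 and 2 higher and 3 lower of 27 for TIP60 in SW480, and 7 higher and 3 lower of 25 for BRD8 and 9 higher and 2 lower of 25 for TIP60 in HCT116. In SW480 that is 22.2% for BRD8, against 26.9% of all genes, and 18.5% for TIP60, against 23.6%. In HCT116 it is 40% for BRD8, against 24.4%, and 44% for TIP60, against 27.9%. Their median log2 fold change was 0.21 and 0.27 for BRD8 and 0.06 and 0.30 for TIP60 in SW480 and HCT116, with that of all genes between -0.03 and 0.01. IFITM3, which blocks virus entry, was higher after BRD8 depletion in both lines (0.36 ± 0.0509 in SW480 and 0.76 ± 0.0562 in HCT116). Its counts were not whole in 29 of the 30 libraries. In HCT116 it also had 224, 236 and 233 CPM with siTIP60-2 and 218, 229 and 221 with siTIP60-11, against 156, 179 and 177 in controls. UBE2L6, the enzyme that passes ISG15 to its ligases, was lower after TIP60 depletion in both lines (-0.93 ± 0.121 in SW480 and -1.05 ± 0.0841 in HCT116). In HCT116 it was also lower with siBRD8-6 (12.4, 12.7 and 14.1 CPM) and siBRD8-36 (16.8, 18.3 and 17.1), against 24.3, 27.1 and 27.6 in controls. In SW480 siTIP60-2 did not raise IFITM3, and the BRD8 libraries of UBE2L6 overlapped the controls. Of the few antigen presentation genes, calls were none higher and 2 lower of 7 for BRD8 and none higher and 4 lower of 7 for TIP60 in SW480, and 1 higher and 2 lower of 6 for BRD8 and 1 higher and 4 lower of 6 for TIP60 in HCT116. Of all genes, 14% and 12.1% were called lower for BRD8 and TIP60 in SW480, and 12.2% and 14.1% in HCT116, and with so few list genes the direction was not tested as a group. TAP2, a peptide transporter subunit, was lower by counts in all 4 comparisons, by -0.70 ± 0.0949 and -0.73 ± 0.0953 on the log2 scale for BRD8 and TIP60 in SW480 and -0.86 ± 0.0539 and -0.95 ± 0.054 in HCT116. Its counts were not whole in all 30 libraries. In TPM every depleted HCT116 library lay below the controls, but in SW480 each siRNA overlapped them. There siBRD8-6 was not lower, at 30.1, 23.1 and 37.6 TPM, against 31.6, 26.6 and 22.9 in controls.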

How the data were processed

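Directional libraries were made, per the labels' protocols, from 100 ng of total RNA of SW480 and HCT116 cells and sequenced as single reads of 60 bases. The submitters' processing notes name build hg38, RSEM 1.3.3, STAR 2.7.3a and Trimmomatic 0.33. Which annotation release was used, and whether counting used strand, is not given in the sources used here, so reads of overlapping genes such as PARP9 and DTX3L, or CMPK2 and RSAD2, may not be told apart. Per the file headers, the authors deposited each gene's expected count, which divides reads that fit several genes and need not be whole, and its TPM, which corrects for transcript length.

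Expected counts were rounded. Each line was fitted with its 15 libraries by edgeR 4.0.16 in R 4.3.3 (quasi-likelihood, robust, TMM scaling, expression filter), leaving 15277 genes in SW480 and 15919 in HCT116. Line differences used a fit of all 30 libraries with 17411 genes. In each line 33 of the 39 members passed the filter, and in the joint fit 36. In SW480 DHX58, IFIT1, RSAD2, IFI44, IFI44L and XAF1 did not pass, and in HCT116 OAS2, MX2, RSAD2, SAMD9L, IFI44L and XAF1 did not. For each gene and target the larger p of both siRNAs was taken, or 1 where their signs differed, and adjusted by Benjamini-Hochberg over all genes tested, at 0.05. Changes are means of the siRNA log2 fold changes against control, with n = 3 libraries a group, and a standard error is the change's size over the root of its F statistic. CPM are from rounded counts with TMM scaling within a line, and TPM are used across genes or lines. A group at 0 counts is set to a floor of 3 counts over the group; intervals are exact for the counts and cover counting error only. The fits were also run on simulated counts with the same spread for all genes and the same change with both BRD8 siRNAs. Those counts held no difference between the siRNAs of a target and no outlying library, so they say nothing about either. Alternatives were DESeq2 1.42.0, upper-quartile scaling, no filter, a CPM of at least 1 in at least 3 libraries, limma 3.58.1 on log2(TPM + 1), a replicate block, the 9 libraries of a comparison alone, and each library left out.

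The members and lists were chosen with earlier results of these data known. Values per library are given for the targets, for up to 4 called members with the largest change per target and line, for up to 3 with the largest siRNA difference and for up to 3 with the largest difference between lines; other members given by library were chosen after their values were seen. Promoters come from RefSeq (GRCh38.p14), gene positions from GENCODE release 29 (GRCh38). The labels do not say whether replicates were separate cultures, so p-values measure the spread between these libraries, which may be technical. Replicate pairs differed by more than sampling noise (chi-square per gene 1.47 to 21.3 over genes with at least 20 counts, the highest values being those of HCT116 control replicate 2), and all 30 libraries were counted separately.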

Additional observations from a re-analysis of the deposited data

Results flagged for a closer look

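Responses to depletion differed between the lines, by the interaction term of the fit of all 30 libraries (SW480 minus HCT116, log2), most in 3 members for each target. For BRD8 these were CMPK2 at 1.60, OAS3 at 1.49 and MX1 at 1.27. CMPK2 had 0.962, 0.334 and 0.421 CPM with siBRD8-6 and 1.07, 1.11 and 0.897 with siBRD8-36, against 0.275, 0.422 and 0.598 in SW480 controls, and 0.358, 0.48 and 0.657 and 0.887, 0.874 and 0.423 CPM, against 0.655, 1.13 and 1.25 in HCT116 controls. MX1, a GTPase that blocks influenza and other viruses, had 13.6, 15.2 and 16.9 and 12.7, 9.88 and 13.3 CPM with these siRNAs in SW480, against 9.89, 10.5 and 10.0 in controls, and 0.239, 0.66 and 0.478 and 0.414, 0.403 and 0.476 CPM in HCT116, against 0.928, 0.602 and 0.749 in controls. Neither gene was called for BRD8 within a line. CMPK2 rests on low counts in both lines, with 2, 3 and 4 counts in SW480 controls and 12, 15 and 20 in HCT116 controls, and MX1 on low counts in HCT116, with 17, 8 and 12 in controls. The CMPK2 difference was not called without HCT116 control replicate 3, SW480 control replicate 1 or siBRD8-6 replicate 1 of SW480, and that of MX1 not without HCT116 control replicate 1.

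For TIP60 the members were OAS1 at -2.61, SAMD9 at 1.83 and USP18 at 1.5. USP18 had 1.27, 1.35 and 1.98 CPM with siTIP60-2 and 0.319, 1.07 and 0.587 with siTIP60-11, against 0.275, 0.281 and 0.747 in SW480 controls, and 9.36, 9.46 and 9.11 and 5.95, 5.23 and 5.32 CPM, against 8.78, 7.9 and 8.74 in HCT116 controls. Its difference was not called without SW480 control replicate 1 or 2 or siTIP60-11 replicate 2. The OAS1 difference rests on 3 counts in HCT116 controls and, in SW480, on the mean of siRNAs called singly in opposite directions. SAMD9 was called higher for TIP60 in SW480 and missed the call in HCT116 (adjusted p = 0.0516), where siTIP60-11 gave the larger change.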

How the results depend on the processing

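Of 3232 gene values computed under the alternatives, 2942 kept their direction and side of the threshold, 288 kept the direction but not the call, and 2 reversed, both with limma on log2(TPM + 1): EIF2AK2 for BRD8 minus TIP60 depletion in SW480 at 0.11 (adjusted p = 0.256), and DDX60 for the TIP60 response in SW480 minus HCT116 at -0.23 (adjusted p = 0.464). Numbers of members called moved by over 1.5 times for BRD8 in SW480, to 2 with DESeq2 and 3 without a filter; for TIP60 in HCT116, to 3 with limma; for siTIP60-11 minus siTIP60-2 in HCT116, to 11 with limma; and for BRD8 in HCT116, to 5 with only the 9 libraries compared. The cause was not tested. Leaving out each library gave 2 to 5 members for BRD8 and 6 to 9 for TIP60 in SW480, and 7 to 8 for BRD8 and 6 to 8 for TIP60 in HCT116. It gave 16 to 20 (SW480) and 21 to 22 (HCT116) for BRD8 against TIP60, 23 to 25 and 19 to 21 for the BRD8 siRNAs, 16 to 19 and 15 to 17 for the TIP60 siRNAs, 9 to 14 and 11 to 15 for the BRD8 and TIP60 responses between lines, and 31 to 33 for the control lines.

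Replicate numbers shared between groups showed no pairing in SW480. There the deviations of same-numbered libraries had a median correlation of -0.003 (1 of 30 pairs over 0.1), against -0.004 for different numbers. In HCT116 same-numbered libraries deviated together weakly, with a median of 0.058 (7 of 30 pairs over 0.1, the highest 0.184), against -0.033 for different numbers. With the replicate number as a block the members called were 5 for BRD8 and 8 for TIP60 in SW480, 8 and 9 in HCT116, and 30 for the control lines. OASL, SAMD9 and DDX60 carry wider errors in SW480, where the libraries were shallower and these genes also had a lower level per library.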
